A study of Mus musculus with 18 samples.

Results

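The genes flanking Ebi3 are the transcribed genes of mouse chromosome 17 that start within 10 Mb of Ebi3 on either side, between 45952640 and 65957022 in GRCm38. Of 370 genes annotated there, 365 were in the count table and 110 reached 100 counts summed over the 18 libraries. Ebi3, Uhrf1 and 6 genes of ribosomal and respiratory chain proteins were left out by name, which left 102 members of the 55487 genes in the table. The members comprise 93 protein-coding genes and 9 predicted or noncoding genes. They held 158165 counts in all, between 0.506% and 0.5934% of the counts of a library. At the edge of the count rule stood Abcc10 with 106 and Rfx2 with 109 counts inside, and Gm23037 with 95 and Zfp119a with 93 counts outside.

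The libraries came from T cells taken from spleen by sorting and stimulated for 72 h with anti-CD3 and anti-CD28 (2 µg/ml each) and IL-2 (10 ng/ml). There were 3 libraries in each of 6 groups. CD8, CD4 and Treg cells came from Foxp3 YFP/cre Ebi3 -/- mice (KO) and from Foxp3 YFP/cre mice (WT), so that all groups carry the Foxp3 allele. YFP/cre at Foxp3 is expressed under the control of that gene, the transcription factor gene that defines regulatory T cells. The labels give no ages, no breeding history and no note of whether replicates came from different animals, so a p-value here speaks for the spread among these libraries, which may be technical.

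Ebi3 encodes a secreted subunit of the cytokines IL-27 and IL-35. A targeted allele is carried on a chromosome segment from the strain in which it was made, and backcrossing replaces the near neighbours of the target least often. Neighbours from that strain, called passenger alleles, can differ in expression whatever the targeted gene does, and a neighbour close to the target can also be touched by the engineered sequence itself. The comparison asked whether genes near Ebi3 differed between KO and WT beyond the spread of libraries. It measured transcript levels only, and no sequence variants of the mice were measured.

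Total counts ran from 1358671 to 2255950 per CD8 or CD4 library and from 841892 to 1089003 per library labelled Treg. Levels are given as CPM, counts scaled to a common library size. Each transcript is counted at its 3′ end, so CPM is not divided by gene length. Foxp3 lay between 0 and 1.3 CPM in the 6 libraries labelled Treg, which held Cd8a at 24.9 to 46.7 and Cd4 at 34.4 to 68 CPM. Ikzf2, another Treg marker, pointed the other way. Its lowest level under the Treg label, 34.4 CPM, exceeded its highest in any CD4 library, 25.4 CPM. The CD8 libraries, however, spanned 22 to 73.3 CPM for Ikzf2. Il2ra, also a Treg marker, peaked at 189 CPM under the Treg label, short of its lowest CD4 value, 361 CPM. The markers thus disagree. With Foxp3 this low, Treg is used below only as the label of those libraries. Treg KO replicates 1 and 3 were closer than sampling noise, as were Treg WT replicates 1 and 2, and each pair was counted as 1 sample in means (n = 2 per genotype). Of 9 Treg pairs across genotype, 4 also did not differ beyond that noise. Treg WT replicate 3 and Treg KO replicate 2 were the closest of these, with a chi-square per gene of 0.869. The pairs counted as 1 sample had 0.914 (KO) and 0.923 (WT). The Treg means of KO and WT may therefore not be independent. The tests below, unlike the means, took all 18 libraries as separate and shared 1 estimate of the spread over them. Their Treg p-values may therefore be too small and their Treg intervals too narrow. Among transcripts of other cells, those of B cells moved with genotype in opposite directions in CD8 and CD4, though the library ranges overlapped. Summed over 10 B cell markers the level was 4120 to 5690 CPM in CD8 KO and 2630 to 4540 CPM in CD8 WT libraries, but 3140 to 4320 CPM in CD4 KO and 3560 to 6460 CPM in CD4 WT libraries. In the libraries labelled Treg that sum was 4650 to 5110 CPM. The sum of 7 T cell markers was 844 to 1720 CPM, below the B cell sum in every library. These lists hold different genes, so the sums do not give shares of cells. All 10 B cell markers had a positive log2 fold change in CD8 and all 10 a negative one in CD4, and 0 passed the threshold. The 7 erythroid markers tested had the same signs. All 6 myeloid and dendritic markers tested were higher in CD8 KO, but in CD4 KO 2 were higher and 4 lower. Fewer cells of a type and less RNA per cell cannot be told apart in such bulk samples, and the part of these other cells in any result below was not tested.

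The promoters of Ebi3, the targeted gene, and of Yju2, the member nearest to it, are shown. These genes share a strand and lie end to start. Yju2 (ENSMUSG00000003208, chromosome 17, 55959099 to 55968285, plus strand) begins 2077 bases past the end of Ebi3 (55952640 to 55957022, plus strand). It encodes a splicing factor whose budding yeast counterpart is needed for the catalytic step of pre-mRNA splicing. The sequences are RefSeq promoter windows of GRCm38.p6, 250 bases before to 50 after the start that RefSeq gives, which is not the GENCODE start quoted here, on the plus strand. Capitals mark matches on either strand to CCGGAAG, a form of the ETS factor motif, and CCAAT, the motif of NF-Y, which share no bases where they occur here.
Yju2, chr17:55958937-55959236: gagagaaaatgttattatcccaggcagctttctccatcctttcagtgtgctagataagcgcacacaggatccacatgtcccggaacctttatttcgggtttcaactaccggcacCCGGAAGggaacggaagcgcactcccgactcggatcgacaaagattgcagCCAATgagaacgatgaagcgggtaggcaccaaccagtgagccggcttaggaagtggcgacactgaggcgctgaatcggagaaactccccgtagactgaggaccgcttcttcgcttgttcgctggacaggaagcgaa
Ebi3, chr17:55952373-55952672: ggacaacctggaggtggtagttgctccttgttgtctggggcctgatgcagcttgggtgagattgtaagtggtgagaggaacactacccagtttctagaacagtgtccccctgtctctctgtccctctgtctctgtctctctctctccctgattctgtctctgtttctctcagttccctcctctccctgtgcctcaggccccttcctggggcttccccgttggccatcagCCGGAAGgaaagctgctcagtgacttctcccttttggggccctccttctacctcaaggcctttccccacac
The Yju2 window holds 21 CpG dinucleotides and 1 match each to CCGGAAG and CCAAT, whereas the Ebi3 window holds 2 CpG dinucleotides and 1 match to CCGGAAG. For 87 members with an entry (117 windows), the median was 20 CpG per window, against 7 over all 32851 windows. CCGGAAG occurred in 24.8% of member windows and 8.9% of all windows. CCAAT occurred in 44.4% of member windows and 37.4% of all windows. The SP1 motif GGGCGG and the TATA motif TATAAA were also searched and had no match in the windows shown. GGGCGG occurred in 66.7% of member windows and 35.7% of all windows, and TATAAA in 8.5% and 13.6%. The members had passed the count rule, whereas the set of all windows was not limited by counts. Windows of other transcribed genes were not compared. Whether these CpG numbers and motif shares set the members apart from other transcribed genes was therefore not tested. The matches describe letters in a window and not sites in use.

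None of the 102 members differed between KO and WT past an adjusted p of 0.05 in CD8, CD4 or Treg libraries, by edgeR's quasi-likelihood test with Benjamini-Hochberg adjustment over 12693 genes. Over all genes the share past that threshold was 0.165% in CD8 (21 genes), 0% in CD4 and 0% in Treg. At an unadjusted p under 0.05, 22 members stood out in CD8 (21.6%, against 16.3% of all genes), 11 in CD4 (10.8%, against 7.32%) and 5 in Treg (4.9%, against 2.16%). KO and WT libraries did not overlap for 23 members in CD8 (22.5%, background 17.4%), 8 in CD4 (7.84%, background 9.6%) and 7 in Treg (6.86%, background 9.4%). The median log2 fold change of the members was 0.00 in CD8, -0.02 in CD4 and -0.02 in Treg, beside medians of 0.00, 0.00 and -0.01 over all genes. Levels were higher in KO for 50 members in CD8, 49 in CD4 and 48 in Treg, so neither direction prevailed in the window.

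A single library affected the count in CD8. Without CD8 WT replicate 3, 4 members passed the threshold there, all with lower levels in KO: Dnph1, Tnfaip8l1, Mydgf and Efna5, with adjusted p from 0.033 to 0.049 by edgeR. CD8 WT replicate 3 had the highest B cell marker sum of its group, 4540 CPM against 2630 and 3060 CPM. DESeq2 called 1 member in CD8, Treml2 (adjusted p = 0.0327), and the fit without a filter on low counts called Gm19585 in CD8 and Lonp1 in CD4. The share of all genes past the threshold in these alternative fits is not given here. Their counts are therefore not read as a result about the members.

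A passenger allele is present in every cell of the animal, so the mean of the KO effects over cell types was also tested. Over the 3 cell types 0 members passed (0% of all genes), 8 members had an unadjusted p under 0.05 (7.84%, against 3.51% of all genes), and the log2 fold changes ran from -0.59 to 0.49. Over CD8 and CD4 alone, 0 members passed (0.0158% of all genes, 2 genes) and 11 had an unadjusted p under 0.05 (10.8%, against 6.11%). The 95% interval of that mean lay within a 2-fold change either way for 97 of the 102 members (95.1%, against 89.6% of all genes). It lay within 1.5-fold for 77 members (75.5%, against 71.5%). Differences larger than that were therefore outside the interval for most members, while smaller ones were not resolved at this depth.

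**Figure D1:**
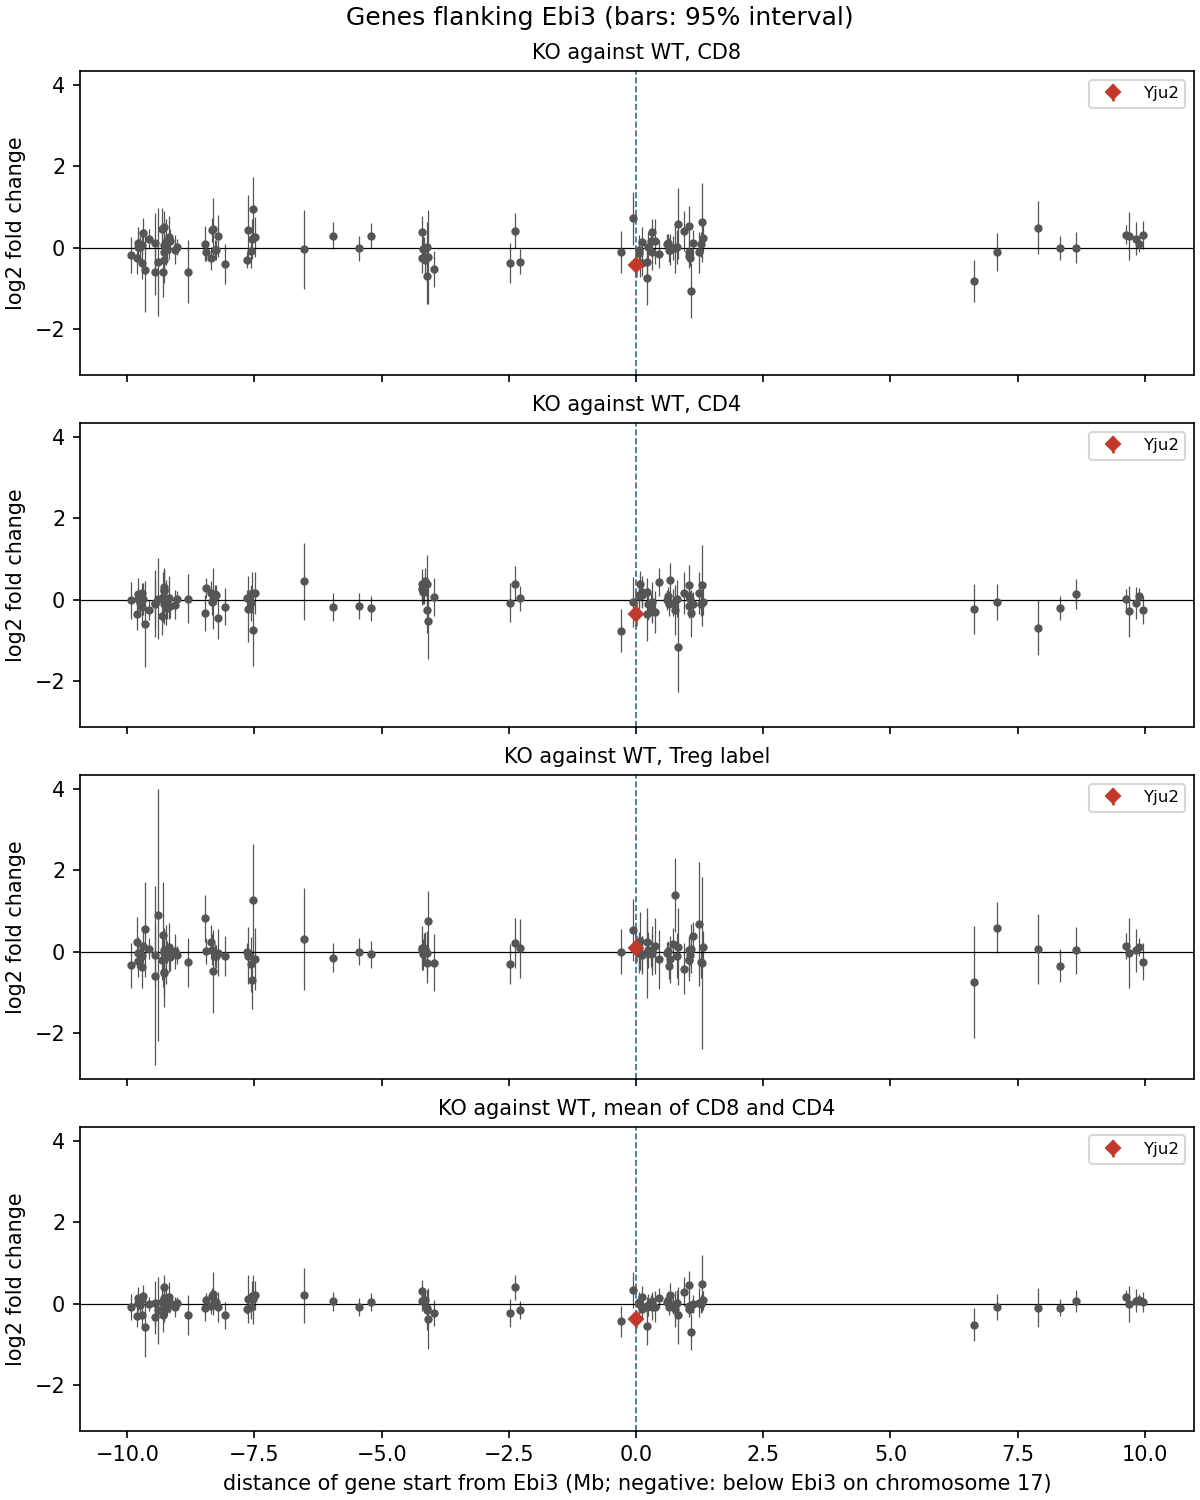
Log2 fold change of KO against WT (y axis) of each of the 102 genes against the distance of its start from Ebi3 in Mb (x axis, negative below Ebi3), in CD8, CD4 and Treg-labelled libraries and as the mean of CD8 and CD4; bars are 95% intervals and the red diamond is Yju2. Points lie on both sides of 0 below as well as above Ebi3, and Yju2 lies at -0.43, -0.34, 0.09 and -0.38 from top to bottom.

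Members were not spread evenly along the window. Within 1 Mb of Ebi3 lay 25 members (2 below, 23 above), a further 22 lay at 1 to 5 Mb and 55 at 5 to 10 Mb. In CD8 an unadjusted p under 0.05 was reached by 7 of 25 members within 1 Mb (28%), 7 of 22 at 1 to 5 Mb (31.8%) and 8 of 55 at 5 to 10 Mb (14.5%). The corresponding shares in CD4 were 24%, 9.09% and 5.45%, and in Treg 8%, 9.09% and 1.82%. In each set of libraries the outermost class had a share below that over all genes, and the innermost class a share above it. The difference between classes was not tested. The directions were mixed. Of the 7 innermost members in CD8, Zfp959 and Plin3 had higher levels in KO and Yju2, Chaf1a, Hdgfl2, Tnfaip8l1 and Mydgf lower ones, and the 6 in CD4 divided into 3 higher and 3 lower. Only Yju2 and Chaf1a were among the innermost members in both sets, and Chaf1a, the large subunit of a histone chaperone used at replication forks, had log2 fold changes of opposite sign. Members also share reads where genes overlap: 39 of the 102 overlapped another counted gene, and at 1 to 5 Mb both members with an unadjusted p under 0.05 in CD4 lay at Satb1 (Satb1 and Gm37248). Counts of such overlapping genes are uncertain, since the strand setting of the counting is not given in the sources used here. Tomm6 and Gm21981, both counted among the 102, had nearly equal counts in every library, such as 174 and 173 in CD8 KO replicate 1. They are therefore not read as separate measurements.

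Yju2 was the member with the lowest p in both means of the KO effect. Its level was 32.5, 35.5 and 32.6 CPM in CD8 KO libraries, against 45.7, 41.8 and 48 CPM in CD8 WT libraries. In CD4 it was 35, 31.4 and 34.2 CPM in KO, against 43.7, 43 and 41.1 CPM in WT. All KO libraries of CD8 and CD4 therefore lay below all WT libraries of their own cell type. The libraries labelled Treg gave 51.1, 62.2 and 52.8 CPM in KO and 47.9, 50.4 and 57.3 CPM in WT, and these groups overlapped. By group, Yju2 averaged 33.5 ± 1.73 CPM in CD8 KO and 45.1 ± 3.14 CPM in CD8 WT, 33.5 ± 1.90 CPM in CD4 KO and 42.6 ± 1.38 CPM in CD4 WT (SD, n = 3 each), and 57.1 ± 7.29 CPM in Treg KO and 53.3 ± 5.78 CPM in Treg WT (SD, n = 2 each). The CD8 KO and CD4 KO means were thus alike within their spread, as were the CD8 WT and CD4 WT means.

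The log2 fold change of Yju2 was -0.43 in CD8 (SE 0.141) with unadjusted and adjusted p of 0.00482 and 0.135 by edgeR, and -0.34 in CD4 (SE 0.144) with 0.0235 and 0.666. Treg gave 0.09 (SE 0.163, unadjusted p = 0.584 by edgeR). Averaged over CD8 and CD4 it was -0.38 (SE 0.101, 95% interval -0.59 to -0.18, unadjusted p = 0.000578, adjusted p = 0.306 by edgeR), which placed Yju2 at rank 24 of the 12693 genes and short of the threshold. A two-sided exact permutation test within CD8 and CD4, over 400 arrangements of the genotype labels, gave p = 0.005, the smallest value possible for these 2 cell types. With the libraries labelled Treg included, the mean log2 difference was -0.23. The exact permutation p was then 0.0145 over 8000 arrangements, where the smallest possible is 0.00025. In Treg alone the difference was 0.09 (exact permutation p = 0.5). Since Yju2 was picked from 102 members by its small p, these permutation values are descriptions. Between cell types, the KO effect on Yju2 differed by 0.52 between Treg and CD8 on the log2 scale (unadjusted p = 0.0218, adjusted p = 0.591 by edgeR), so that a difference between them was not shown. With hemoglobin transcripts as a covariate its mean over CD8 and CD4 was -0.39 (adjusted p = 0.0923 by edgeR), and leaving out any one CD8 or CD4 library gave -0.36 to -0.41. Yju2 overlaps the counted gene Gm16712, which adds to the uncertainty of its count.

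Ebi3 itself, the targeted gene, was counted in KO libraries too. In CD4 it had 20.6, 26.1 and 22.5 CPM in KO, against 60.5, 38.7 and 39.4 CPM in WT, with a log2 fold change of -0.98 (edgeR adjusted p = 0.127, unadjusted 9.98e-06). In CD8 it had 27.6, 24.2 and 34 CPM in KO, against 29.1, 28 and 29.7 CPM in WT, a log2 fold change of -0.01. The libraries labelled Treg KO had 29.2, 34.5 and 24.6 CPM, against 35, 25.8 and 40.1 CPM in those labelled Treg WT. By these ranges Ebi3 separated KO from WT libraries in CD4, and overlapped between them in CD8 and Treg. The deleted part of Ebi3 is not given in the sources used here, and a 3′ tag outside it would not report on the genotype.

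**Figure D2:**
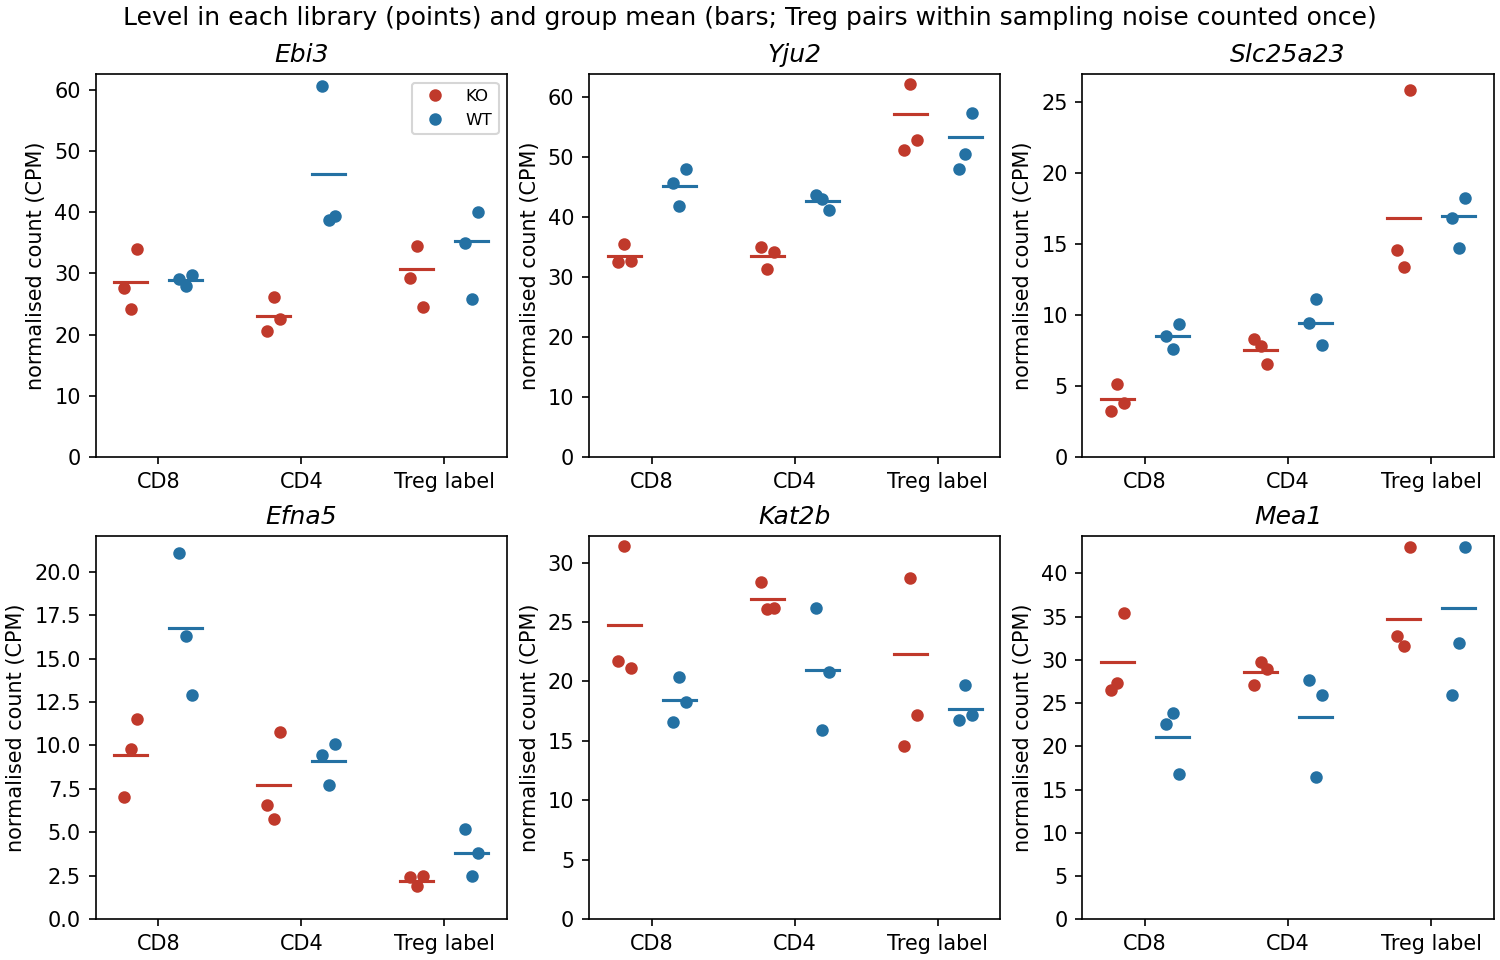
Normalised count in CPM (y axis) of Ebi3 and of 5 flanking genes in every library (points, KO red and WT blue) by cell type (x axis); bars are group means, with Treg pairs within sampling noise counted once. Yju2 lies between 31.4 and 35.5 CPM in the KO libraries of CD8 and CD4 and between 41.1 and 48 CPM in their WT libraries.

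Agreement between CD8 and CD4, which share no libraries, was counted over the members. The log2 fold changes had the same sign in 47 of 102 members (46.1%), beside 38.9% of all genes. Groups lay apart in the same direction in CD8 and CD4 for 1 member, Yju2 (0.98%, background 0.457%, 58 genes), and in opposite directions for 1, Gm37248 (0.98%, background 1.22%). No member lay apart in the same direction in all 3 sets of libraries, nor did any other gene. Differences of the KO effect between cell types passed the threshold for 0 members in each of the 3 contrasts (0% of all genes in each). At an unadjusted p under 0.05 they counted 21 members for CD4 minus CD8 (background 17.9%), 6 for Treg minus CD4 (background 4.33%) and 9 for Treg minus CD8 (background 7.52%).

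**Figure D3:**
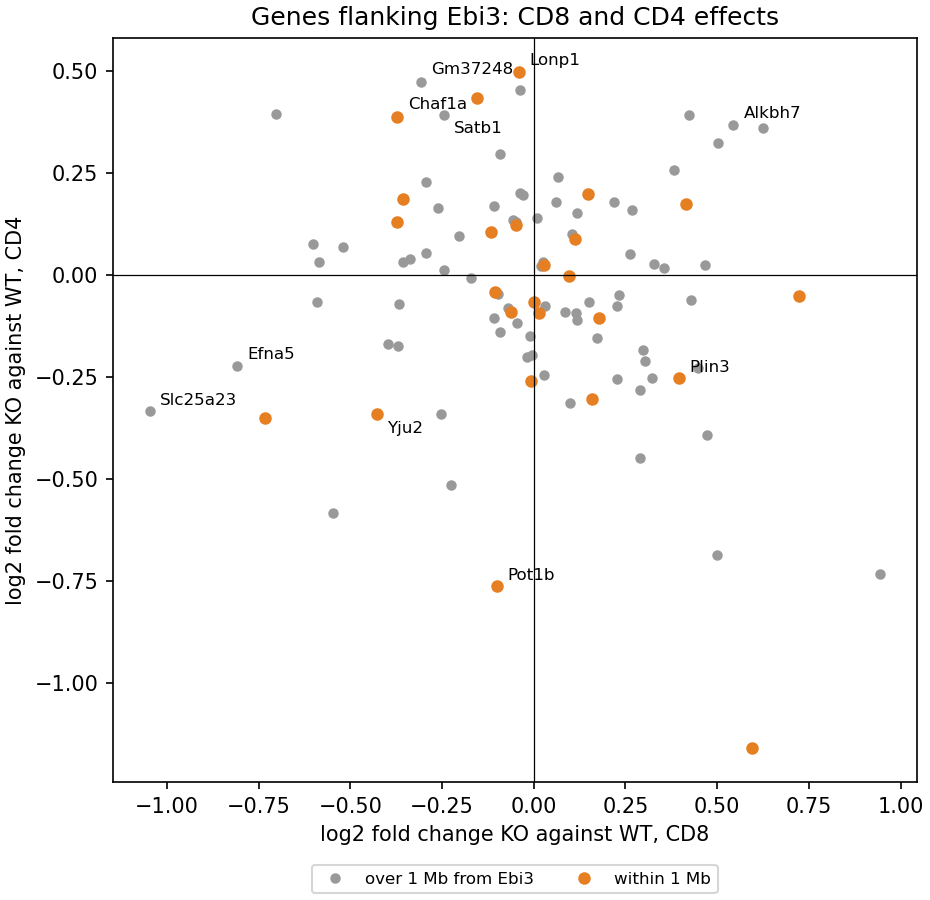
Log2 fold change of KO against WT in CD4 (y axis) against that in CD8 (x axis) for the 102 genes, with those within 1 Mb of Ebi3 in orange. The points spread over all 4 quadrants, with 47 of 102 of one sign in CD8 and CD4 and Yju2 at -0.43 and -0.34.

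The other genes close to Ebi3 showed no common direction. Below Ebi3 the nearest member, Zfp959, a zinc finger gene 60.5 kb away, had 7.04, 9.79 and 8.14 CPM in CD8 KO and 6.52, 3.06 and 5.44 CPM in CD8 WT libraries, but 8.31, 6.79 and 7.95 CPM in CD4 KO and 7.29, 10.1 and 6.19 CPM in CD4 WT. Pot1b, which binds the single-stranded end of telomeres and lies 300.7 kb away, had 8.75, 15.2 and 8.42 CPM in CD4 KO, against 17.5, 15 and 21.9 CPM in CD4 WT. Its log2 fold change was -0.76 in CD4 (adjusted p = 0.657 by edgeR), -0.10 in CD8 and 0.00 in Treg. The next members below Ebi3 lay over 2 Mb away. They were Sgo1, Kat2b, Rab5a and Gm19585, with mean log2 fold changes over CD8 and CD4 of -0.15, 0.41, -0.22 and -0.23.

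Above Ebi3, beyond Yju2, came Mpnd, Sh3gl1, Chaf1a, Ubxn6 and Hdgfl2, all within 122.6 kb. Mpnd is a putative deubiquitinase, Sh3gl1 an endophilin of endocytosis, Ubxn6 a cofactor of the segregase p97 and Hdgfl2 a reader of methylated histones. Mpnd lay 48.7 kb away and had a mean log2 fold change over CD8 and CD4 of 0.04, Sh3gl1 one of -0.01 and Ubxn6 one of 0.17. None of these 3 reached an unadjusted p of 0.05 in CD8, CD4 or Treg. Hdgfl2 had 55.3, 55.1 and 39.3 CPM in CD8 KO against 64.7, 74.9 and 53.9 CPM in CD8 WT (edgeR adjusted p = 0.214, unadjusted 0.019), and 52.9, 60.1 and 59.4 CPM in CD4 KO against 51, 57 and 48.9 CPM in CD4 WT. The lower level in KO was thus seen in CD8 and not in CD4.

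Chaf1a had effects of opposite sign in CD8 and CD4. In CD8 it had 48.8, 75.2 and 55.1 CPM in KO, against 82.3, 83 and 66.7 CPM in WT. In CD4 it had 79.1, 68.5 and 94.1 CPM in KO, against 47.4, 67.2 and 68.6 CPM in WT. The difference of the KO effect, CD4 minus CD8, was 0.76 (SE 0.231, adjusted p = 0.103 by edgeR). T cell markers moved the same way, with all 7 negative in CD8 and all 7 positive in CD4, and 0 past the threshold; their part in the result was not tested.

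Among mitochondrial members, Slc25a23, a carrier of the inner membrane 1086.7 kb above Ebi3, had the lowest p of all members in CD8. Its level was 3.25, 5.15 and 3.83 CPM in CD8 KO, against 8.53, 7.64 and 9.39 CPM in CD8 WT, with no overlap. The log2 fold change was -1.05 in CD8 (SE 0.327, edgeR adjusted p = 0.114, unadjusted 0.00304). In CD4 it had 8.31, 7.84 and 6.55 CPM in KO, against 9.47, 11.1 and 7.87 CPM in WT, and these overlapped. The libraries labelled Treg had 14.6, 13.4 and 25.8 CPM in KO and 16.8, 14.7 and 18.2 CPM in WT, a log2 fold change of 0.08. A few reads separate such low levels, since 3 counts correspond to 1.33 to 3.56 CPM.

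Lonp1, the ATP-dependent protease of the mitochondrial matrix, stood higher in CD4 KO. It had 171, 120 and 121 CPM in CD4 KO, against 64.1, 114 and 110 CPM in CD4 WT. The groups did not overlap, and CD4 WT replicate 1, which had the highest B cell marker sum of its group (6460 CPM), stood well below the other WT libraries. Its log2 fold change was 0.50 in CD4 (adjusted p = 0.657 by edgeR), -0.04 in CD8 and -0.18 in Treg. With hemoglobin as a covariate the mean over CD8 and CD4 passed the threshold (log2 fold change 0.33, adjusted p = 0.0415 by edgeR). Tomm6, a small subunit of the outer membrane import pore, ran from 84.8 to 95.8 CPM in CD8 KO and 85.5 to 102 CPM in CD8 WT. 2410015M20Rik, which stands in no role list, is named Micos13 in RefSeq and is part of the complex that shapes cristae. It had 76.6, 71.8 and 62.6 CPM in Treg KO, against 93.3, 98.3 and 77.4 CPM in Treg WT (log2 fold change -0.34, adjusted p = 0.999 by edgeR). Of the 8 mitochondrial and lipid members, 3 had an unadjusted p under 0.05 in CD8 (background 16.3% of all genes), 1 in CD4 (background 7.32%) and 0 in Treg (background 2.16%).

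Surface and secreted proteins gave 5 members. Treml2, a TREM-like receptor, had 225, 194 and 211 CPM in CD8 KO, against 248, 284 and 242 CPM in CD8 WT, without overlap (log2 fold change -0.29, adjusted p = 0.125 by edgeR). In CD4 it had 240, 222 and 218 CPM in KO and 215, 232 and 208 CPM in WT. Efna5, the ligand ephrin-A5 in no role list, had 7.04, 9.79 and 11.5 CPM in CD8 KO, against 21.1, 16.3 and 12.9 CPM in CD8 WT (log2 fold change -0.81, adjusted p = 0.123 by edgeR). In Treg it had 2.43, 1.91 and 2.46 CPM in KO and 5.18, 2.46 and 3.82 CPM in WT, levels of a few counts a library that all but touch, and in CD4 the groups overlapped. Cnpy3, a chaperone of Toll-like receptors, ran from 72.6 to 93.9 CPM in CD8 KO and 70.3 to 96.2 CPM in CD8 WT.

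Transcription and chromatin formed the most numerous role, with 19 members. Satb1, a chromatin organiser of developing T cells, had 733, 810 and 883 CPM in CD4 KO, against 431, 704 and 707 CPM in CD4 WT, and 654, 756 and 492 CPM in CD8 KO, against 776, 803 and 676 CPM in CD8 WT. Its log2 fold change was 0.39 in CD4 (adjusted p = 0.666 by edgeR) and -0.25 in CD8 (adjusted p = 0.504 by edgeR). Kat2b, a histone acetyltransferase, had 21.7, 31.4 and 21.1 CPM in CD8 KO against 16.6, 20.4 and 18.3 CPM in CD8 WT, and 28.4, 26.1 and 26.2 CPM in CD4 KO against 26.2, 15.9 and 20.8 CPM in CD4 WT. The mean over CD8 and CD4 was 0.41 (unadjusted p = 0.0107, adjusted p = 0.595 by edgeR). Med20, a Mediator subunit, had 41.2, 42.8 and 46.9 CPM in CD8 KO against 31.1, 31.6 and 34.6 CPM in CD8 WT, and overlapped in CD4. Taf8, a TFIID subunit, had 36.5, 29.7 and 49.1 CPM in Treg KO against 16.8, 28.3 and 19.1 CPM in Treg WT (log2 fold change 0.83, adjusted p = 0.999 by edgeR). Zfp318, a nuclear zinc finger protein, ran from 133 to 148 CPM in CD4 KO and 154 to 197 CPM in CD4 WT. Its log2 fold change was -0.26 in CD4 and 0.23 in CD8. Of these 19 members, 3 had an unadjusted p under 0.05 in CD8 (background 16.3% of all genes), 4 in CD4 (background 7.32%) and 1 in Treg (background 2.16%).

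Of 7 members in RNA processing and ribosome assembly, 2 had an unadjusted p under 0.05 in CD8 (background 16.3% of all genes), Yju2 and the RNA-binding protein gene Khsrp. Khsrp had 181, 158 and 167 CPM in CD8 KO, against 201, 199 and 199 CPM in CD8 WT (log2 fold change -0.24, adjusted p = 0.21 by edgeR). In CD4 its log2 fold change was 0.01. Xpo5, the exporter of pre-miRNAs, had log2 fold changes of 0.03 in CD8 and -0.08 in CD4. Of 8 members in cell division and repair, Ccnd3, a D-type cyclin, had 217, 200 and 207 CPM in CD4 KO, against 132, 183 and 191 CPM in CD4 WT (log2 fold change 0.30, adjusted p = 0.657 by edgeR), and a log2 fold change of -0.09 in CD8. Sgo1, which guards centromeric cohesion, had 60.7, 68 and 57.5 CPM in CD8 KO, against 80.8, 79.4 and 75.2 CPM in CD8 WT, and a log2 fold change of 0.04 in CD4. The 15 signalling members included Rftn1, a lipid raft protein, with a log2 fold change of 0.30 in CD8, -0.18 in CD4 and -0.14 in Treg. Dennd1c, a DENN domain protein, had a log2 fold change of 0.38 in Treg (adjusted p = 0.999 by edgeR). All 9 members in proteolysis and trafficking had an unadjusted p over 0.05 in CD8, CD4 and Treg. Over all genes the share under 0.05 was 16.3%, 7.32% and 2.16%, and so few members cannot show a difference from it. Among them were the ubiquitin ligase gene Ubr2, with log2 fold changes of 0.03, 0.03 and -0.08, and Fem1a, a substrate receptor of cullin ligases. Yipf3, a Golgi membrane protein of this list, had negative log2 fold changes in all 3 (-0.37, -0.17 and -0.37). Its mean over the 3 cell types was -0.30 (unadjusted p = 0.0217 by edgeR), not past the threshold.

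Other members named for their small p stood in no role list. Mea1 had 26.5, 27.3 and 35.4 CPM in CD8 KO against 22.6, 23.9 and 16.8 CPM in CD8 WT, and 27.1, 29.8 and 29 CPM in CD4 KO against 27.7, 16.4 and 25.9 CPM in CD4 WT. Vapa, an endoplasmic reticulum protein of membrane contact sites, had 140, 159 and 136 CPM in CD8 KO against 116, 107 and 123 CPM in CD8 WT, and 122, 134 and 131 CPM in CD4 KO against 114, 130 and 135 CPM in CD4 WT. Ptprs, a receptor tyrosine phosphatase, had 56, 45.5 and 61.3 CPM in CD4 KO against 31.3, 42.5 and 45.6 CPM in CD4 WT, and a log2 fold change of -0.16 in CD8. Vmac, which overlaps Ndufa11, had 10.9, 11.5 and 11 CPM in Treg KO against 5.18, 4.92 and 2.87 CPM in Treg WT, a log2 fold change of 1.40 (unadjusted p = 0.0037, adjusted p = 0.999 by edgeR). Each of these separated the genotypes in at most 1 set of libraries, and none passed the threshold over all genes.

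More members passed the threshold between cell types than between genotypes. Among WT libraries, 3 members differed between CD8 and CD4, all higher in CD8 (background 5.37% of all genes, with 3.49% higher and 1.88% lower). At an unadjusted p under 0.05 there were 14 members (13.7%, background 20%), and the groups did not overlap for 18 (17.6%, background 18.9%). Bysl, needed to assemble the small ribosomal subunit, had 84.8, 85 and 89 CPM in CD8 and 47.4, 60.4 and 63.6 CPM in CD4 (log2 fold change 0.58, adjusted p = 0.0121 by edgeR). Mydgf, a secreted growth factor, had 70.3, 58 and 42.5 CPM in CD8 and 32.1, 41.6 and 38.8 CPM in CD4 (0.59, adjusted p = 0.0336 by edgeR). Efna5 had 21.1, 16.3 and 12.9 CPM in CD8 and 9.47, 7.73 and 10.1 CPM in CD4 (0.88, adjusted p = 0.0452 by edgeR). The Bysl call was lost without CD4 WT replicate 1 (adjusted p = 0.0742 by edgeR), with only the compared libraries (0.0635) and with a 1.2-fold change required (0.128). The Mydgf and Efna5 calls were lost without CD8 WT replicate 1 or 2 or CD4 WT replicate 1 or 3, and that of Efna5 also without CD4 WT replicate 2. With hemoglobin as a covariate the log2 fold change of Mydgf was 0.33 (adjusted p = 0.347 by edgeR), and its call was also lost with only the compared libraries (0.175), a 1.2-fold requirement (0.196), DESeq2 (0.0691) and limma-voom (0.0558). That of Efna5 was lost under the same 5 settings (adjusted p from 0.0607 to 0.154 by edgeR, DESeq2 or limma-voom). It was also lost without the filter (0.0504), with a replicate block over all groups (0.0527) and with the Treg pairs summed (0.0619).

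Between libraries labelled Treg and CD4, 48 of the 102 members differed (47.1%, beside 43% of all genes). Of these, 29 were higher (background 24.8%) and 19 lower (background 18.2%) in Treg, so that the members' share was near that of all genes. At an unadjusted p under 0.05 there were 58 members (56.9%, background 49.9%), and the groups did not overlap for 55 (53.9%, background 50.6%). Leaving out predicted or uncharacterised genes, the 5 largest rises were those of Cul9, Trerf1, Rab5a, Rrp36 and Gtpbp2. Of those left out, Gm37266 rose by 2.37, Gm37593 by 1.62, B430306N03Rik by 1.51 and Gm37176 by 1.35 on the log2 scale, each past the threshold by edgeR. Cul9, a cullin, rose to 15.6, 11.1 and 9.56 CPM in Treg, against 3.64, 4.83 and 3.94 CPM in CD4 (log2 fold change 1.47, adjusted p = 0.0022 by edgeR). Rab5a, the GTPase of early endosomes, rose to 27.2, 29.5 and 29.6 CPM in Treg, against 16.8, 11.6 and 11.2 CPM in CD4 (1.15). Trerf1, Rrp36 and Gtpbp2 rose by 1.19, 1.08 and 1.03 on the log2 scale.

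The 5 largest named falls were those of Dnph1, Srf, Tnfsf14, Sgo1 and Chaf1a. Sgo1 fell to 19.4, 6.15 and 13.4 CPM in Treg, against 59, 83.1 and 60.7 CPM in CD4 (log2 fold change -2.40, adjusted p = 3.5e-09 by edgeR). Chaf1a fell to 20.7, 8.6 and 15.3 CPM in Treg, against 47.4, 67.2 and 68.6 CPM in CD4 (-2.05, adjusted p = 1.42e-07 by edgeR). Tnfsf14, the TNF family ligand LIGHT, fell to 5.18, 1.23 and 0.956 CPM in Treg, against 13.1, 15 and 21.4 CPM in CD4 (-2.82, adjusted p = 2.52e-05 by edgeR). These Treg levels rest on 4, 1 and 1 counts, so the size of the fall is uncertain. Dnph1, a nucleotide hydrolase, fell to 1.3, 1.23 and 3.82 CPM in Treg, against 11.7, 25.1 and 20.8 CPM in CD4 (-3.08, adjusted p = 5.61e-05 by edgeR). It held 6 counts in Treg WT against 105 in CD4 WT, a ratio of 0.104 (95% exact interval 0.0372 to 0.233, counting error only). Srf, the serum response factor gene, held 2, 0 and 0 counts in Treg WT libraries, against 2, 7 and 25 in CD4 WT. The summed counts gave a ratio of 0.107 (95% exact interval 0.0124 to 0.416, counting error only). Its log2 fold change was -2.97 (adjusted p = 0.0177 by edgeR), and it was -1.68 without CD4 WT replicate 3, which holds most of these counts (adjusted p = 0.19 by edgeR). The call was also lost without Treg WT replicate 2 or 3. Of the 8 members in cell division and repair, 7 differed (background 43% of all genes), 5 lower (background 18.2%) and 2 higher (background 24.8%) in Treg.

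**Figure D4:**
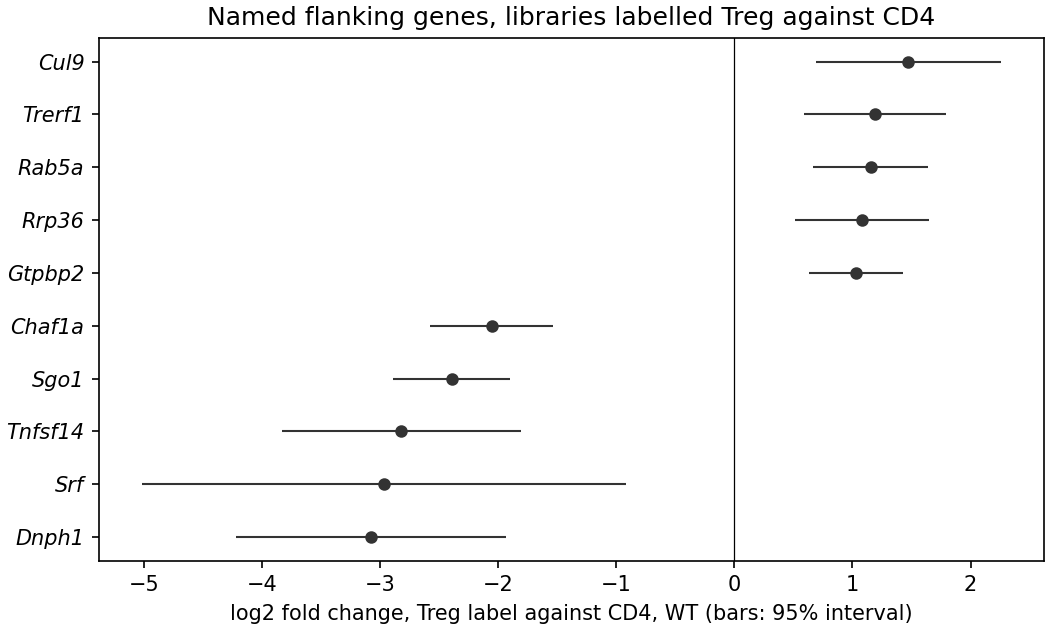
Log2 fold change between WT libraries labelled Treg and CD4 (x axis) of the 5 largest named rises and 5 largest named falls among the flanking genes (y axis), predicted or uncharacterised genes left out; bars are 95% intervals from edgeR. Values run from 1.47 for Cul9 to -3.08 for Dnph1.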

How the data were processed

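QuantSeq 3′ mRNA libraries with unique molecular identifiers were made from 500 ng of total RNA each, per the labels' protocols. The authors deposited whole-number counts without normalisation for 55487 Ensembl genes in 18 libraries, and 0 columns were left unused. The submitters' processing notes name STAR 2.5.3a, Subread 2.0.0 with featureCounts, UMI-tools 1.0.0, cutadapt 2.10 and FastQC, and the build GRCm38. Annotation release, strand setting and the handling of reads with several alignments were not given in the sources used here. Positions came from GENCODE vM21 (GRCm38), matched by identifier for 55227 genes.

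Counts were analysed with edgeR 4.0.16 in R 4.3.3. Genes passed filterByExpr with a minimum count of 10, which kept all 102 members and 12693 genes in all. TMM scaling, glmQLFit (robust) and glmQLFTest were used on the means of 6 groups over 18 libraries, which share 1 estimate of the spread, with Benjamini-Hochberg adjustment over all genes and a threshold of 0.05. Contrasts were KO against WT per cell type and averaged, differences of that effect, and CD8 or Treg against CD4 in WT. Scripts were tested on simulated data. Replicate pairs were compared by chi-square over genes with at least 20 counts. The smallest exact permutation p of 1 value between 3 and 3 libraries is 0.1.

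Named genes are Ebi3; the 8 members of lowest p in the mean of 3 cell types and 5 in each cell type; the 6 nearest on each side; the 2 of highest mean in each role list; and the 5 largest rises and falls between cell types. Predicted or uncharacterised genes are counted, left out of the rises and falls between cell types and mostly not described. Of the other genes so chosen, 1 is not reported here. The members, role lists and rules were chosen with earlier results of these data known, and genes named under an alternative were chosen after their values were seen. Alternatives were another scaling (RLE), no filter, a 1.2-fold requirement, replicate blocks, a hemoglobin covariate, limma-voom 3.58.1, DESeq2 1.42.0, only the compared libraries, leaving out each library and, added after seeing the data, summed Treg pairs and a block over all groups. Intervals are 95% and cover the fit's error.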

Additional observations from a re-analysis of the deposited data

How the results depend on the processing

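Counts of members past the threshold kept within 1.5 times in all settings run for KO against WT in Treg, its mean over 3 cell types, the differences Treg minus CD4 and Treg minus CD8, and Treg against CD4 in WT. In CD8 the count was 1 without the filter and 1 with DESeq2, and 0 to 4 leaving out single libraries. In CD4 it was 1 without the filter (Lonp1). The mean over CD8 and CD4 gave 1 with the hemoglobin covariate (Lonp1). The difference CD4 minus CD8 gave 3 without the filter (Satb1, Chaf1a, Plin3), 1 with the replicate block (Satb1) and 0 to 4 leaving out single libraries. CD8 against CD4 in WT gave 3 members as reported, 0 with the 1.2-fold requirement, 1 with the hemoglobin covariate, 0 with only the compared libraries, and 0 to 6 leaving out single libraries. The causes were not tested, other than that fewer libraries or genes enter some fits. The share of all genes past the threshold in each alternative setting of this section is not given here. Such counts compare settings and do not set the members apart from other genes.

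Same-numbered libraries did not deviate together (r from -0.23 to 0.307), so numbers were not taken as pairs. With the replicate block, 0 members passed in the other 7 KO contrasts, 2 in CD8 against CD4 (block over all groups) and 47 in Treg against CD4. Of 6233 values of named genes under alternatives, 21 newly passed the threshold, 28 no longer did and 366 changed sign while passing in neither. Depth limits genes of low level, above all in the libraries labelled Treg, where 3 counts reach 3.56 CPM.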

Other observations

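Among the neighbours left out by name, Rpl36, a protein of the large ribosomal subunit, also lay apart in the same direction in CD8 and CD4, and was picked after its values were seen. It had 620, 634 and 743 CPM in CD8 KO libraries, against 535, 466 and 530 CPM in CD8 WT. In CD4 it had 659, 604 and 624 CPM in KO, against 590, 509 and 552 CPM in WT. The libraries labelled Treg had 507, 548 and 514 CPM in KO and 638, 537 and 547 CPM in WT. All KO libraries thus exceeded the WT libraries in CD8 and CD4, and the groups overlapped in Treg. The mean log2 fold change over CD8 and CD4 was 0.29 (SE 0.0633, edgeR adjusted p = 0.174, unadjusted 6.85e-05). In CD8 alone it was 0.38 (adjusted p = 0.0546 by edgeR). Ribosomal protein genes have processed copies elsewhere in the genome, so the count of Rpl36 is uncertain.

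Uhrf1, a reader of hemimethylated DNA, had 74.3, 65.8 and 74.9 CPM in CD4 KO and 33.5, 62.8 and 65.8 CPM in CD4 WT libraries. Its log2 fold change was 0.38 in CD4 and -0.16 in CD8, neither past the threshold. It fell by 1.79 on the log2 scale between Treg and CD4 in WT (adjusted p = 6.22e-07 by edgeR).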
